A study of Mus musculus with 2 samples.

Results

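The genes described here handle iron and haem outside the Slc carrier family: Lcn2, Hp, Fth1, Ftl1, Trf, Tfrc, Cp, Steap4, Hmox1 and Ireb2. They were taken by symbol from the count table, where all 10 were found among 19674 gene rows. The cells were fibroblasts of mouse skin, a wild-type cell line labelled MDFB, which were treated in culture with vehicle or with IL-17A. IL-17A is a cytokine of inflamed skin, and the series asks which cells it acts on there. Each treatment had 1 bulk RNA-seq library, both with batch label 1, and the labels gave neither the dose nor the time nor whether the line is a single clone. The libraries held 24427027 counts for vehicle and 23559416 for IL-17A.

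Iron is needed by nearly every cell and is toxic when free, so cells take it up bound to transferrin, store it inside ferritin shells and release it through a single known exporter. The iron regulatory proteins bind hairpins in the messenger RNAs of these genes, holding back ferritin translation and protecting the transferrin receptor message when iron is scarce. In inflammation, hosts also keep iron from microbes with secreted proteins that bind siderophores, haemoglobin or iron itself, several of which are acute-phase proteins.

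With 1 library per treatment there was no replicate check, no test and no p-value, and every interval below is an exact 95% interval for counting error only. Levels are in CPM, which is counts scaled to a common library size with TMM normalisation, and "measured" means at least 50 counts summed over both libraries. Genes whose scaled counts differed by 2-fold or more are counted as higher or lower in the IL-17A library, which compares 2 libraries and says nothing of how other cultures would vary.

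All 10 genes were measured. In the IL-17A library 6 of them (60.0%) were at least 2-fold higher, against 5.19% of the 13534 measured genes, and 0 were at least 2-fold lower, against 3.69%. Because the genes were chosen with results of these libraries known, these shares describe the group and do not test it. In bulk RNA, more or fewer cells of a type and more or less RNA of a gene per cell cannot be told apart. The called genes were Lcn2, Hp, Trf, Cp, Steap4 and Fth1, which are the secreted binding proteins, a ferroxidase, a metalloreductase and the heavy chain of ferritin. The other 4, Ftl1, Tfrc, Hmox1 and Ireb2, lay within 2-fold. The median log2 ratio of IL-17A over vehicle was 2.15 for the 10 genes and 0.00 for all measured genes. Together the genes held 39146 counts (0.160% of the library) with vehicle and 110650 (0.470%) with IL-17A, of which Fth1 alone made up 46.2% and 50.5%.

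**Figure D1:**
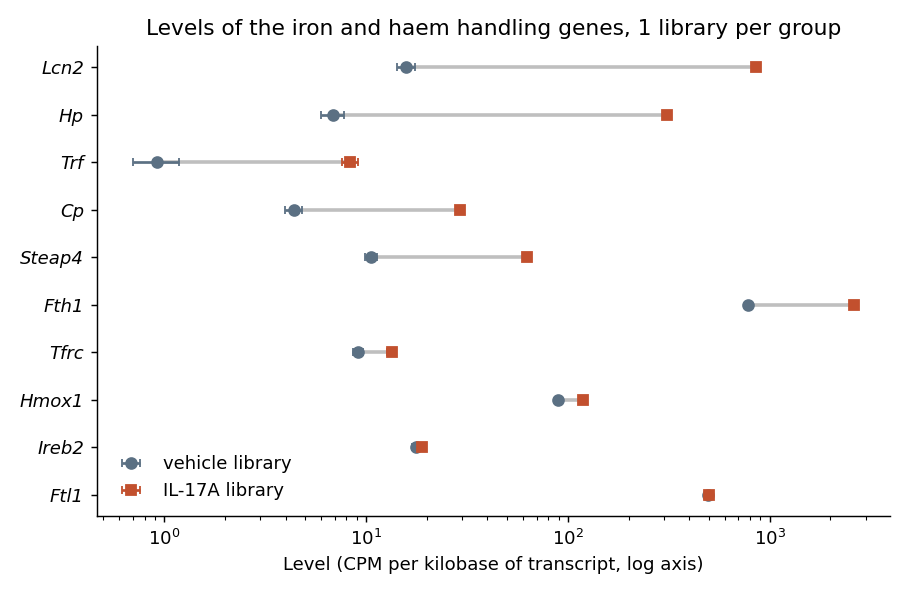
Level of each gene in CPM per kilobase of transcript (log axis) in the vehicle library (circles) and the IL-17A library (squares), 1 library each, with bars for the 95% counting interval. Lcn2 and Hp cover the longest distance, Fth1 is highest in both libraries, and the symbols of Ireb2 and Ftl1 lie nearly on top of each other.

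**Figure D2:**
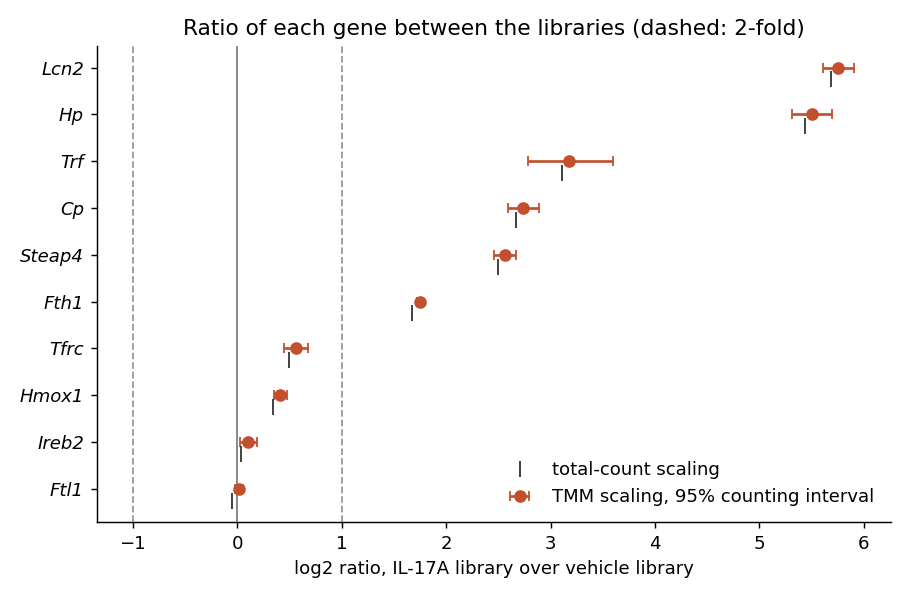
log2 ratio of the IL-17A over the vehicle library for each gene, with points and bars for TMM scaling and its 95% counting interval, ticks for total-count scaling, and dashed lines at 2-fold. The 6 genes from Lcn2 down to Fth1 lie to the right of the 2-fold line under both scalings, and 4 lie inside it.

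Among the secreted proteins, Lcn2 stood furthest from its vehicle level. It encodes lipocalin 2, also called siderocalin, which captures the siderophores with which bacteria collect iron. Lcn2 (chromosome 2 at 32384633 to 32388252 in GRCm38) had 362 counts in the vehicle and 17987 in the IL-17A library, or 14.5 and 782 CPM. That placed it at rank 8671 by count among all rows in the vehicle library and at rank 126 in the IL-17A library. Its log2 ratio of 5.75 (interval 5.60 to 5.91) was the 19th highest of all measured genes.

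Hp encodes haptoglobin, the plasma protein that captures free haemoglobin and so keeps its haem iron from being lost or used by microbes. Hp (chromosome 8 at 109575128 to 109579172) had 231 counts in the vehicle and 9628 in the IL-17A library, or 9.24 and 418 CPM. Its log2 ratio was 5.50 (interval 5.31 to 5.70), next below Lcn2 at rank 20, and the intervals of Hp and Lcn2 overlapped. By count it moved from rank 9822 to rank 316. The receptor gene Cd163, through which macrophages take up haptoglobin complexes, had 0 counts in the vehicle and 1 in the IL-17A library.

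Hpx, which encodes the haem-binding plasma protein haemopexin and belongs to the haem clearance list rather than to the 10 genes, was also higher, from few counts. It had 11 counts in the vehicle and 58 in the IL-17A library, or 0.439 and 2.52 CPM, and was 5.73-fold (interval 2.98 to 12.1) higher.

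Trf encodes transferrin, the carrier of ferric iron in plasma. Trf (chromosome 9 at 103204001 to 103230444) had the fewest counts of the 10, with 59 in the vehicle and 492 in the IL-17A library, or 2.36 and 21.4 CPM. It was 9.06-fold (interval 6.91 to 12.1) higher. In the GENCODE annotation 79.8% of the 50-base stretches of its transcript also belong to a read-through gene, Gm20425, which is no row of the count table. Whether reads of Trf were lost to that overlap was not tested.

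Cp encodes ceruloplasmin, the copper-containing ferroxidase that oxidises ferrous iron so that it can be loaded onto transferrin. Cp (chromosome 3 at 19957054 to 20009145) had 442 counts in the vehicle and 2717 in the IL-17A library, or 17.7 and 118 CPM, and was 6.68-fold (interval 6.04 to 7.40) higher. Its exons share 108 bases with Hps3 on the opposite strand, and no source used here states whether the counting used strand. The related ferroxidase gene Heph, named after its values were seen, had 409 and 352 counts, a log2 ratio of -0.10.

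Steap4 encodes a metalloreductase that turns ferric into ferrous iron and cupric into cuprous copper. Steap4 (chromosome 5 at 7960457 to 7982213) had 840 counts in the vehicle and 4563 in the IL-17A library, or 33.6 and 198 CPM. Its fold of 5.90 (interval 5.48 to 6.36) was the largest of the STEAP family. Steap2, a family member with the same kind of activity, had 1834 and 3571 counts and a log2 ratio of 1.08, with an interval that starts just under the 2-fold limit and ends at 1.16. Steap1 stood at a log2 ratio of 0.54 (interval 0.32 to 0.76) from 302 and 404 counts. Steap3, the endosomal ferrireductase of the transferrin cycle, stood at -0.20 (interval -0.32 to -0.08) from 1355 and 1085 counts. The 4 genes of the family therefore differed in size and sign of ratio, with Steap4 and Steap2 past 2-fold and the other 2 within it.

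Cytosolic ferritin is a shell of heavy and light chains, in which the heavy chain oxidises iron and the light chain supports its deposition as a mineral. The heavy chain gene Fth1 (chromosome 19 at 9980598 to 9985098) had 18089 counts in the vehicle and 55831 in the IL-17A library, or 723 and 2426 CPM. It was 3.35-fold (interval 3.30 to 3.41) higher and went from rank 115 to rank 27 by count. The light chain gene Ftl1 (chromosome 7 at 45457944 to 45459884) had 11967 and 11117 counts, or 479 and 483 CPM. Its log2 ratio was 0.01 (interval -0.02 to 0.05) under TMM scaling, and its sign turned with total counts (-0.05) or upper quartiles (-0.02) as the scale. The chains of one protein thus differed between these libraries: Fth1 was past the 2-fold rule and Ftl1 was not.

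The contrast did not depend on how the libraries were scaled. Within the vehicle library Fth1 had 1.51 counts, not divided by length, for each count of Ftl1, and within the IL-17A library it had 5.02. The ratio between the chains was 3.32-fold (interval 3.22 to 3.43) higher with IL-17A. As a share of all counts, Fth1 went from 0.0741% (interval 0.0730% to 0.0751%) to 0.237% (interval 0.235% to 0.239%), and Ftl1 from 0.0490% (interval 0.0481% to 0.0499%) to 0.0472% (interval 0.0463% to 0.0481%).

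**Figure D3:**
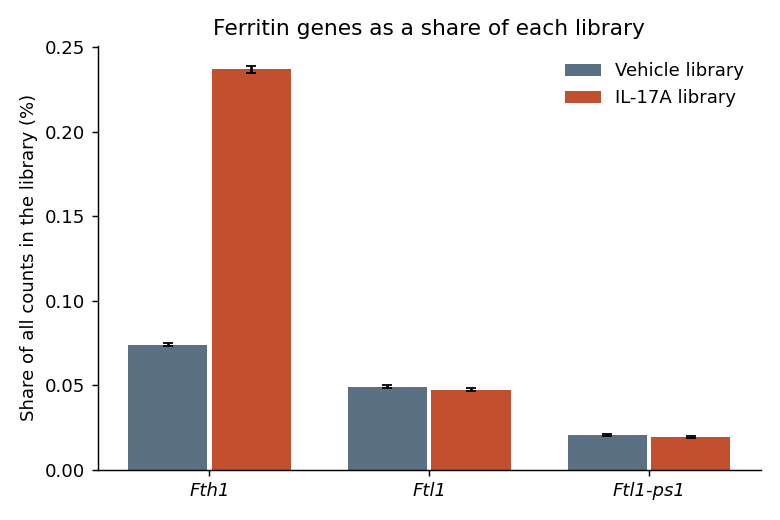
Share of all counts (percent) held by Fth1, Ftl1 and the light chain copy Ftl1-ps1 in the vehicle and the IL-17A library, 1 library each, with bars for the exact 95% interval. Only the Fth1 bar differs visibly between the libraries, at 0.0741% and 0.237%, among these 3 genes.

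Ftl1 has many near-identical copies, so its level is uncertain. Of the 50-base stretches in its transcript, 90.6% also occur in transcripts of 17 other annotated genes. The copy Ftl1-ps1 on chromosome 13 holds 73.4% of all the stretches. The row of Ftl1-ps1 held 4996 counts with vehicle and 4548 with IL-17A, a log2 ratio of -0.02 (interval -0.07 to 0.04), close to the ratio of Ftl1 itself. For Fth1 the shared part was 6.59%, with Gm6977 as the 1 other gene, and for the other genes apart from Trf it was 0%. How reads that align to several places were counted is not given in the sources used here.

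Tfrc encodes transferrin receptor 1, through which cells take in iron-loaded transferrin. Tfrc (chromosome 16 at 32608920 to 32632794) had 1115 counts in the vehicle and 1513 in the IL-17A library, or 44.6 and 65.8 CPM. Its log2 ratio of 0.56 (interval 0.45 to 0.67) lay above 0 and inside the 2-fold limit. The uptake receptor and the storage heavy chain were not higher by the same factor: the ratio of Tfrc to Fth1 counts was 2.27-fold (interval 2.10 to 2.46) lower with IL-17A. Transferrin differed more than its receptor, with a ratio of Trf to Tfrc that was 6.15-fold (interval 4.63 to 8.28) higher. The second transferrin receptor gene, Tfr2, named after its values were seen, had 26 and 29 counts.

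Ireb2 encodes iron regulatory protein 2, which binds iron-responsive hairpins and is degraded when iron is plentiful, a control on the protein that counts of messenger RNA do not show. Ireb2 (chromosome 9 at 54863789 to 54912530) had 2546 counts in the vehicle and 2522 in the IL-17A library, or 102 and 109.6 CPM, with a log2 ratio of 0.11 (interval 0.03 to 0.19). Aco1, which encodes the other iron regulatory protein, stood at -0.28 (interval -0.37 to -0.18) from 2005 and 1524 counts. Both lay within 2-fold, and the ratio of Ireb2 to Aco1 was 1.30-fold (interval 1.19 to 1.42) higher with IL-17A. Fbxl5, the subunit of the ubiquitin ligase that removes iron regulatory protein 2, stood at 0.40 and is named after its value was seen.

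The hairpins that these proteins bind have a loop that reads CAGUGN over a short stem with a bulged C. A C, any 5 bases, CAGTG and any base, with the 5 bases before this loop pairing with the 5 after it (G with T allowed), were searched on the transcript strand in the GENCODE transcripts of all protein-coding genes, and 1.34% of 21877 genes held a match. Of the 10 genes, 3 held one: Fth1 and Ftl1 before the coding sequence, and Tfrc 4 times after it. The sequences are shown because the element is common to storage, uptake and export genes whose ratios differ widely in these libraries. They are given 5′ to 3′ as DNA in GRCm38, with the loop in capitals.
Fth1, chr19:9982732-9982760, plus strand: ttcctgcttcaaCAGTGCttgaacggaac
Ftl1, chr7:45459779-45459807, minus strand: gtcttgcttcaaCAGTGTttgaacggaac
Tfrc, chr16:32631219-32631247, plus strand: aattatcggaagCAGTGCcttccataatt
Tfrc, chr16:32631598-32631626, plus strand: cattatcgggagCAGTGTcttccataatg
Tfrc, chr16:32631663-32631691, plus strand: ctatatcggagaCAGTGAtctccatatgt
Tfrc, chr16:32631710-32631738, plus strand: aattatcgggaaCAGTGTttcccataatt
Slc40a1, chr1:45925465-45925493, minus strand: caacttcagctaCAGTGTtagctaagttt

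Slc40a1, from the lists of other iron genes, is shown with them because it carries the same element before its coding sequence. Ftl1-ps1 held the same 29 bases as Ftl1. The log2 ratios of the genes shown ranged widely: 1.75 for Fth1, 0.56 for Tfrc, 0.01 for Ftl1 and -3.04 for Slc40a1. Slc40a1 encodes ferroportin, the exporter that carries iron out of cells. It had 233 counts in the vehicle and 26 in the IL-17A library, or 9.32 and 1.13 CPM, and was 8.25-fold (interval 5.49 to 12.9) lower, which placed it as the 40th lowest of all measured genes.

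Hmox1 encodes haem oxygenase 1, the inducible enzyme that opens haem and frees its iron. Hmox1 (chromosome 8 at 75093621 to 75100589) had 3495 counts in the vehicle and 4280 in the IL-17A library, or 139.7 and 186 CPM. Its log2 ratio of 0.41 (interval 0.35 to 0.48) lay within 2-fold. The constitutive enzyme gene Hmox2 stood at 0.12 (interval -0.01 to 0.26) from 906 and 909 counts. The transcription factor Nrf2 drives Hmox1 and both ferritin chains under oxidative stress, so 10 of its other known targets were set beside them. Of all 13534 measured genes, 12332 lay within 2-fold. All 10 targets were measured and lay within 2-fold too, with a median log2 ratio of 0.18. The one with the most counts, Txnrd1, stood at 0.50, and Nqo1, named after its value was seen, stood at -0.75. The log2 ratio of Hmox1 lay inside the range of these targets and that of Fth1, at 1.75, lay above all 10. Whether Nrf2 had a part in any of these ratios was not tested.

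**Figure D4:**
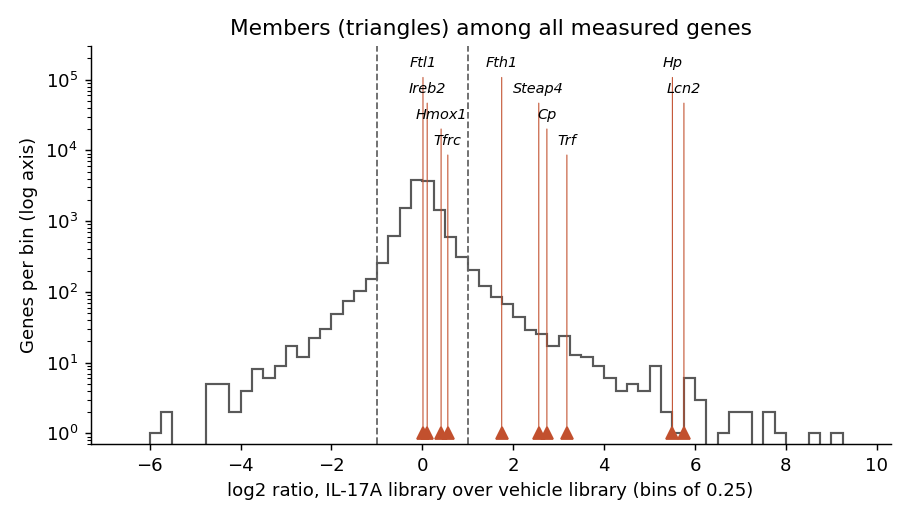
Number of measured genes (log axis) by log2 ratio of the IL-17A over the vehicle library in bins of 0.25, drawn as a line, with triangles at the ratios of the 10 genes and dashed lines at 2-fold. Lcn2 and Hp sit in the far right tail, Trf, Cp, Steap4 and Fth1 between there and the 2-fold line, and 4 genes in the central peak.

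Levels were compared between genes after division by transcript length, in CPM per kilobase. With vehicle the order ran from Fth1 at 779 and Ftl1 at 494 through Hmox1 at 89.1, Ireb2 at 17.6, Lcn2 at 15.8, Steap4 at 10.6, Tfrc at 9.12, Hp at 6.87 and Cp at 4.39 to Trf at 0.918. Ireb2 and Lcn2 were the 1 pair of neighbours whose counting intervals overlapped. With IL-17A the order became Fth1 at 2612, Lcn2 at 854, Ftl1 at 499, Hp at 311, Hmox1 at 119, Steap4 at 62.9, Cp at 29.3, Ireb2 at 19.0, Tfrc at 13.4 and Trf at 8.32, with no overlap between neighbours. Lcn2 thus passed Ftl1, and Hp passed Hmox1. The spread between cultures is unknown, so an order beyond counting error may still be within it. The place of Fth1 above Ftl1 with vehicle rested on the length used: with the longer Fth1 transcript, which starts upstream, their ratio of levels was 0.979 in place of 1.58. The places of Ftl1 in both orders are also uncertain, since how reads shared with its copies were counted is not given.

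Of 62 other iron and haem genes listed, 55 were in the count table and 50 were measured. Of these 50, 6 were at least 2-fold higher, 2 were lower and 42 lay within 2-fold, with a median log2 ratio of 0.08, where the background was 5.19% of measured genes higher and 3.69% lower. Among 14 genes of iron regulation and storage, 1 was higher and 0 lower. That gene was Epas1, which encodes the hypoxia-responsive factor HIF-2 alpha, at 5.35-fold (interval 5.10 to 5.61) from 2123 to 10449 counts. The gene with the most counts in the list was Pcbp2, an RNA-binding protein that also delivers iron to ferritin, at -0.00.

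Haem synthesis showed no gene past the limit, within which 12332 of all 13534 measured genes lay. Its 9 measured genes ran from a log2 ratio of -0.32 to 0.29 with a median of -0.09, and the one with the most counts, ferrochelatase Fech, which inserts iron into the porphyrin ring, stood at -0.09. Among 9 genes of haem and haemoglobin clearance, Hpx was the 1 gene past 2-fold, and the one with the most counts, the haemopexin receptor Lrp1, stood at 0.08 from 29491 and 28662 counts. Of the 2 measured genes for receptors of lipocalin 2, Slc22a17 stood at -0.06 from 370 and 327 counts. Lrp2, which encodes megalin, had 78 and 19 counts and was 3.78-fold (interval 2.27 to 6.61) lower.

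Iron and haem carriers were above 0 in 10 of 12 cases, against 6802 of all 13534 measured genes. Of the 12, 3 were at least 2-fold higher and 1 lower, against 5.19% and 3.69% of all measured genes. The median log2 ratio of the 12 was 0.66. Slc39a14, a carrier that takes in iron not bound to transferrin, had 4671 and 10774 counts and was 2.51-fold (interval 2.42 to 2.59) higher. Slc11a2, the ferrous iron carrier DMT1, had 2159 and 4226 counts and was 2.13-fold (interval 2.02 to 2.24) higher. Slc25a37, the mitochondrial importer mitoferrin 1, was 2.05-fold (interval 1.89 to 2.23) higher, but stood inside the limit, at a log2 ratio of 0.97, with total counts as the scale, and just inside it with upper quartiles. The exporter gene Slc40a1, described above, was the 1 lower carrier.

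**Figure D5:**
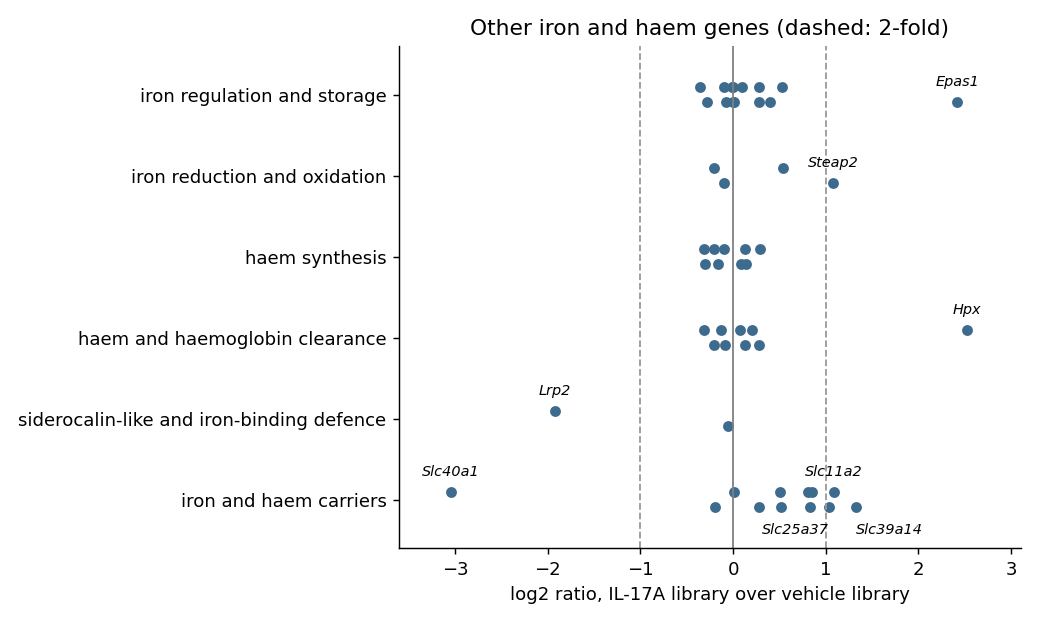
log2 ratio of the IL-17A over the vehicle library for the 50 measured genes of the other iron and haem lists, 1 point per gene, with dashed lines at 2-fold and names for the genes past them. Most points lie near 0, with 6 named genes to the right and Slc40a1 and Lrp2 to the left.

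Lcn2, Hp and Cp are themselves known as acute-phase genes. Of 17 other acute-phase genes listed, 11 were in the count table and 7 were measured. Of these 7, 6 were higher and 0 lower, against 5.19% and 3.69% of all measured genes. The median log2 ratio of the 7 was 2.52. The 6 were the complement genes Cfb at 6.01, from 8 and 474 counts, and C3 at 3.03, the serum amyloid gene Saa3 at 5.22, Hpx at 2.52, the protease inhibitor gene Serpina3g at 2.52 and the pentraxin gene Ptx3 at 1.35, from 8029 and 18777 counts. The seventh, Serpina3n, lay within 2-fold at 0.67. Lcn2 at 5.75 and Hp at 5.50 stood between Cfb and Saa3, and Cp at 2.74 stood between C3 and Hpx. The interval of Cfb, 5.02 to 7.23, covered the ratios of Lcn2, Hp and Saa3. That of Hpx, 1.57 to 3.60, covered those of Cp and C3. The places relative to Cfb and Hpx thus lay within counting error.

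Several of these genes are also known from neutrophils, macrophages or red cell precursors, and markers of those cells were read in both libraries. Of 10 neutrophil markers, 5 were in the table, with a summed level of 0.160 CPM with vehicle and 3.35 with IL-17A. Cxcr2 and Retnlg were at 0 counts in both libraries, S100a9 had 2 and 2, S100a8 had 2 and 11, and Camp had 0 and 64. A count of 0 allowed up to 3 counts, or 0.120 CPM with vehicle and 0.130 with IL-17A. The summed neutrophil markers were thus higher in the same library as Lcn2 and Hp, and their part in those ratios was not tested. All 9 macrophage markers were in the table, with a summed level of 196 and 279.9 CPM, most of it Lyz2 at 153 and 227. Of the 7 measured, 6 stood above 0 and 1 below, where 6802 of all 13534 measured genes stood above 0. None of the 7 was past 2-fold. The highest log2 ratios were those of Cd14 at 0.96 from 201 and 360 counts and Itgam at 0.96 from 47 and 84. The pan-leukocyte gene Ptprc had 87 and 88 counts, and Fcgr1, under the minimum for measured genes, had 28 and 6. The erythroid genes Hbb-bs and Alas2 were at 0 in both. The 10 fibroblast markers were all measured, with a summed level of 56467 and 42246 CPM, of which Col1a1 had the most counts at 590781 and 348690. They ran both ways, with 4 above 0 and 6 below. The 1 marker past 2-fold was Dcn, which encodes the proteoglycan decorin, at 6.15-fold (interval 6.05 to 6.25) higher from 17022 and 96320 counts. The part of the macrophage and fibroblast markers in the ratios above was not tested.

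The RefSeq promoter table for GRCm38.p6 had entries for 7 of the 10 genes, in 10 windows from 250 bases before to 50 after a gene start. Hp, Trf and Hmox1 had none. The C/EBP-type letters TTGCNNAA, searched on both strands, occurred in 10.8% of all 32851 windows. They occurred in a window of Lcn2, Cp, Steap4 and Fth1. No window of Ftl1, Tfrc or Ireb2 held these letters, and the alternative start windows of Cp and Fth1 did not either. The share of 10.8% is per window, while Cp, Tfrc and Fth1 had 2 windows each, and the genes were chosen with their ratios known, so the split between genes with and without a match supports nothing about their ratios. The matches are printed to show the letters themselves. They are given 5′ to 3′ on the gene's strand with 10 bases on each side and the match in capitals.
Lcn2, chr2:32387938-32387965, minus strand: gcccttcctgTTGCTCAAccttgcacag
Cp, chr3:19957169-19957196, plus strand: ttagttactcTTTTGCAAcattaaattg
Steap4, chr5:7960375-7960402, plus strand: acagctcctcTTGCGAAAtcaagcgggc
Fth1, chr19:9982507-9982534, plus strand: ggcaccgctcTTGCAGAAgctcagagcc
Fth1, chr19:9982578-9982605, plus strand: ccctgcgggtTTGGGCAAcacgcccaca

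The match of Lcn2 lay 216 to 209 bases before the start, that of Cp 70 to 63, that of Steap4 87 to 80, and those of Fth1 129 to 122 and 58 to 51. In Cp and in the second site of Fth1 the letters read on the opposite strand. For Steap4 the surrounding stretch outside annotated exons, chr5:7960347-7960456 on the plus strand, is shown whole with the same match in capitals, as the context of the 1 match that lay in no annotated exon.
Steap4: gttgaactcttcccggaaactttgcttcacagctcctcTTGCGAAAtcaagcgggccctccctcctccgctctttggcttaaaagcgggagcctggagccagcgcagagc

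Of the other letters searched, the NF-kB-type letters were GGG and CC with any 5 bases between them. They occurred in at least 1 window of all 7 genes and in 50.8% of all windows. That share is per window, and 1 window of Cp held no match. Steap4 and Ireb2 had 4 matches each, and those of Ireb2 included a pair overlapping on opposite strands, shifted by 1 base. The hypoxia-type letters ACGTG or GCGTG occurred in windows of Ftl1, Tfrc and Fth1 and in 43.8% of all windows. The antioxidant-type letters TGACNNNGC occurred in no window of the 7 genes and in 12.4% of all windows. Sequence outside the windows was not searched and Hmox1 had no window, so this does not show that the genes lack such letters. A match of letters is a description of the sequence, and no binding was measured here.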

How the data were processed

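Polyadenylated RNA of 2 cultures was sequenced with a stranded Illumina mRNA kit, per the labels' protocols. The authors deposited raw counts per gene symbol, without normalization. Alignment and counting used STAR, featureCounts and mm10, per the submitters' processing notes, and the sources used here give no version, annotation, strand setting or multimapping rule.

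Library sizes were scaled over the whole table by the TMM method (edgeR 4.0.16, R 4.3.3), and ratios, intervals and alternatives were computed in Python with scipy 1.17.1. Intervals are exact Clopper-Pearson for shares and ratios, Poisson for levels and conditional for ratios of ratios. The reads carry no molecular identifiers and PCR copies are not independent, so each interval and floor covers only the error of counting. The calculation was tested on simulated data. The edgeR and DESeq2 tests were not run, since nothing is left to estimate a spread from with 1 library for each treatment. DESeq2 1.42.0 gave 1 alternative scaling.

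The 10 genes and all lists were chosen with earlier results of these data known. Named besides the 10 were list genes past 2-fold, up to 6 per list, the most abundant gene of each list and a few fixed relatives. Other names, including markers with few counts, were chosen after their values were seen. Coordinates, overlaps, shared 50-base stretches and transcript lengths (the best supported principal transcript) are from GENCODE M21 on GRCm38, the assembly of mm10. The transcript searches were added after the data were seen. Of the rows, 21 carried date-like symbols (0.275% and 0.208% of counts) and were kept in totals. One gene of the wider iron lists is not reported here.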

Additional observations from a re-analysis of the deposited data

How the results depend on the processing

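No paired analysis was possible because each treatment had 1 library, and for the same reason no replicate could be left out. The 6 higher and 0 lower among the 10 genes held under total-count, upper-quartile and DESeq2 scaling and with a prior count of 2. They also held with minimums of 10, 200 or no counts and limits of 1.5-fold and 3-fold. The minimums could not change this, since Trf, with the fewest counts, had 551 summed over both libraries. The fold limits could not either, since Fth1, the lowest called gene, stood at 3.35-fold and the next, Tfrc, at 1.47-fold. A change of scale moves every ratio alike, and the log2 ratio of Fth1 was still 1.68 with total counts. Without Fth1 and Ftl1 there were 5 higher. For the 10 genes the median log2 ratio was 2.09 with total counts as the scale, and it was 2.65 without Fth1 and Ftl1. The background moved with the limits, as the construction of each fixes: over all measured genes 702 were higher and 500 lower, 1090 and 955 with a minimum of 10, 1347 and 1148 when every row was kept, 1364 and 1117 at 1.5-fold, 340 and 219 at 3-fold, and 275 lower with a minimum of 200. Of the other iron and haem genes, 2 were higher at 3-fold and 1 was lower with a minimum of 200, which removes Lrp2. Of the Nrf2 targets 2 were lower at 1.5-fold. The ferritin share of 0.123% with vehicle and 0.284% with IL-17A was 0.142% and 0.321% when the 20 rows of highest count were left out of the total, and 0.144% and 0.303% with the ferritin pseudogene rows added. The per-length level of Fth1 over Ftl1 was 1.58 and 5.23, and with the longest principal transcript of Fth1, an alternative chosen after seeing the data, 0.979 and 3.25. Changes of ratios within a library do not depend on length. Few counts limit the ratios of several genes, such as Trf, Hpx and Cfb in the vehicle and Slc40a1 and Lrp2 in the IL-17A library. Each had under 60 counts in the library named.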
